A study of Canis lupus familiaris with 6 samples.

Results

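Genes of macrophage scavenging and clean-up were followed through early bone healing in the dog jaw, by every probe set of an Affymetrix canine array that is annotated to 1 of 9 listed genes alone. The genes are CD163, MARCO, GPNMB, VSIG4, CD68, CD5L, MRC1, MSR1 and APOE. All 9 of the 9 listed genes had a probe set, 20 of the 42860 probe sets in all. CD163 had 4 of them, MRC1 and APOE 3 each, MARCO, VSIG4, CD68 and CD5L 2 each, and GPNMB and MSR1 1 each. A gene is described by the probe set with its highest mean over the arrays, called its main probe set, and its other probe sets are given beside it.

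The tissue was mandibular bone of beagle dogs labelled as 9 years old, drilled after premolars had been extracted and 3 months of healing had passed. Control holes were drilled and left without beta-TCP (label: treatment none), and the others were implanted with beta-TCP, a resorbable calcium phosphate ceramic used as a bone graft. Cylinders 4.5 mm wide and 8 mm long were collected at days 4, 7 and 14, which gave 6 groups of 1 array each. How many animals were used, and which specimens shared one, is not given in the sources used here. A difference between 2 arrays therefore carries no error and no p-value, and fewer cells of a type cannot be told apart from less RNA per cell.

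Macrophages clear dead cells, blood and debris from a wound through surface receptors that bind a wide range of ligands. Some of these receptors, such as CD163 and MRC1, are textbook markers of macrophages in the clearing and repair phase, while CD68 is a lysosomal membrane protein carried by macrophages and also by osteoclasts, the bone-resorbing cells of the same lineage. In bone, macrophages line the healing surface and take up fragments of tissue and of implanted material.

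Levels are values divided by the median of their own array, so that 1 is the median of all probe sets. Differences are beta-TCP minus control on the scale log2(level + 1) unless another comparison is named, and a difference of 1 on that scale is called 2-fold. The array labelled beta-TCP day 14 stood apart: its Spearman correlations with the other 5 were 0.723 to 0.779, while those 5 correlated with each other at 0.832 to 0.905. The array has probe sets of 2 name types, Cfa and CfaAffx, and the types did not keep the same balance across arrays. Over 1640 genes read on both types at a mean log2 of 2 or more, the centred median of CfaAffx minus Cfa was 0.37 and 0.40 at day 4 (control, beta-TCP), 0.023 and 0.20 at day 7, and -0.19 and -0.81 at day 14. GPNMB, VSIG4 and MSR1 were read on CfaAffx probe sets alone and MARCO on Cfa probe sets alone. The level of the bone sialoprotein gene IBSP was 4.80 to 251 over the 6 arrays, lowest on control day 4. That of the monocyte and macrophage gene CD14 was 15.4 to 55.8, lowest on control day 14. Not every marker was read so clearly. Of 7 measured osteoblast genes, 2, 3 and 3 lay below the array median on the control arrays of days 4, 7 and 14, and 3, 0 and 0 on the beta-TCP arrays. Of 17 measured monocyte and macrophage genes these counts were 2, 2 and 1, and 2, 3 and 5.

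The first question was how the 9 genes differed between the implanted and the control site on each day. At day 4, differences were small: 1 of the 20 probe sets was at least 2-fold higher with beta-TCP (background over all 42860 probe sets 2.66%) and 0 were at least 2-fold lower (background 2.07%). At day 7 the genes parted. At least 2-fold higher were 4 probe sets, of GPNMB, VSIG4, MSR1 and APOE (background 2.05%). At least 2-fold lower were 5, both of MARCO, both of CD5L and the main one of CD68 (background 1.97%). The higher ones were 4 of 11 CfaAffx and 0 of 9 Cfa probe sets, and the lower ones 1 of 11 and 4 of 9. Median differences of the member probe sets that day were 0.73 on CfaAffx and -0.40 on Cfa. The part of probe set type was not tested. At day 14, 13 were at least 2-fold lower (background 10.1%) and 1, the main probe set of CD68, was at least 2-fold higher (background 3.76%).

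**Figure D1:**
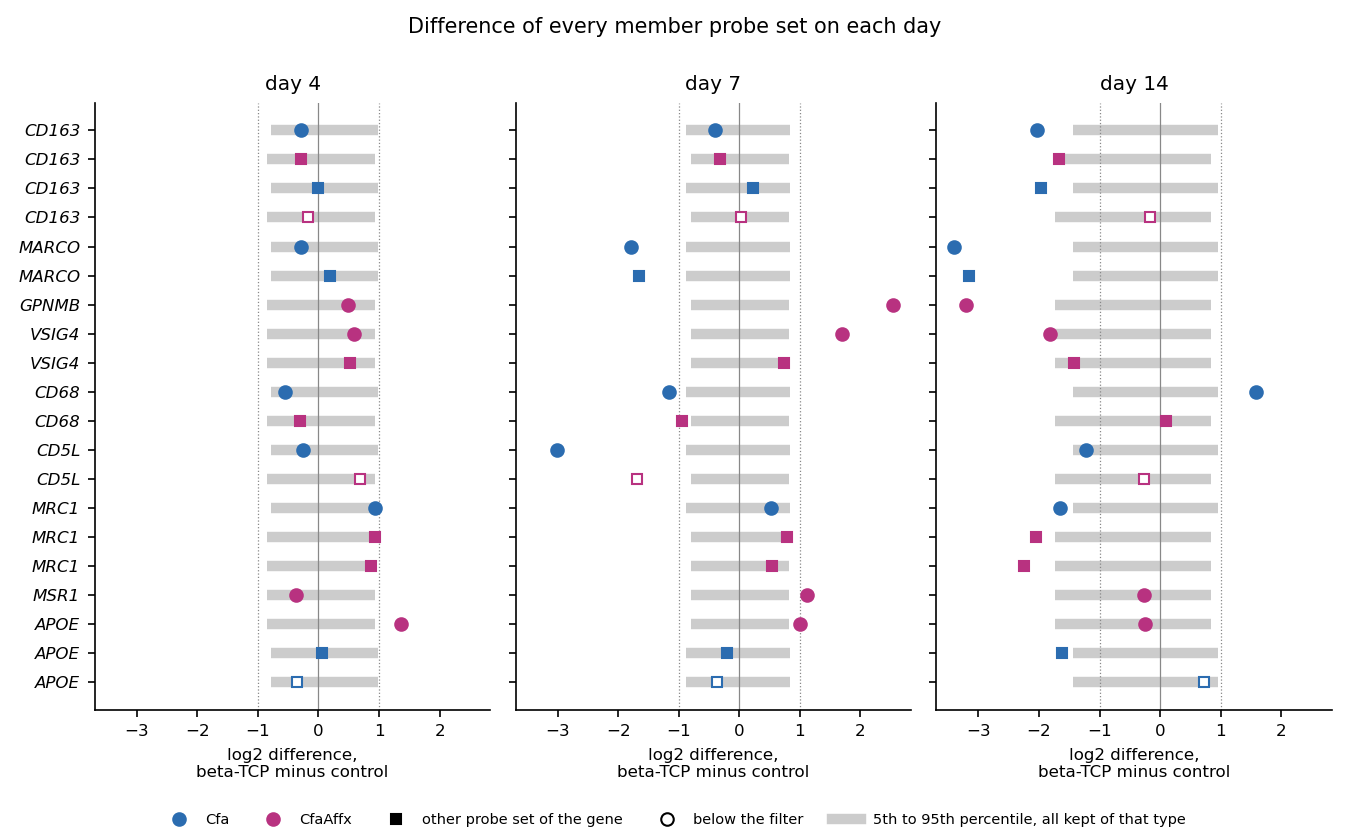
Log2 difference, beta-TCP minus control, of each of the 20 probe sets (rows, labelled by gene) at days 4, 7 and 14, coloured by probe set type, with circles for the main probe set and squares for the others. Grey bars span the 5th to 95th percentile of all kept probe sets of the same type, open symbols lie below the filter on low values, and dotted lines mark 2-fold: most points sit inside the bars at day 4, to both sides at day 7 and to the left at day 14.

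The lower values of day 14 were seen on both name types, 7 of 9 Cfa and 6 of 11 CfaAffx probe sets. Of the 25591 probe sets kept after a filter on low values (a mean log2 at or above the 40th percentile), 12.5% of Cfa and 20.6% of CfaAffx ones were also at least 2-fold lower that day. The median difference at day 14 was -1.64 over the 20 probe sets and -0.22 over all kept ones. At day 4 the same medians were 0.020 and 0.15, and at day 7 -0.094 and -0.039. Every day 14 difference rests on the beta-TCP array that stood apart, and the part of that array in them was not tested.

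**Figure D2:**
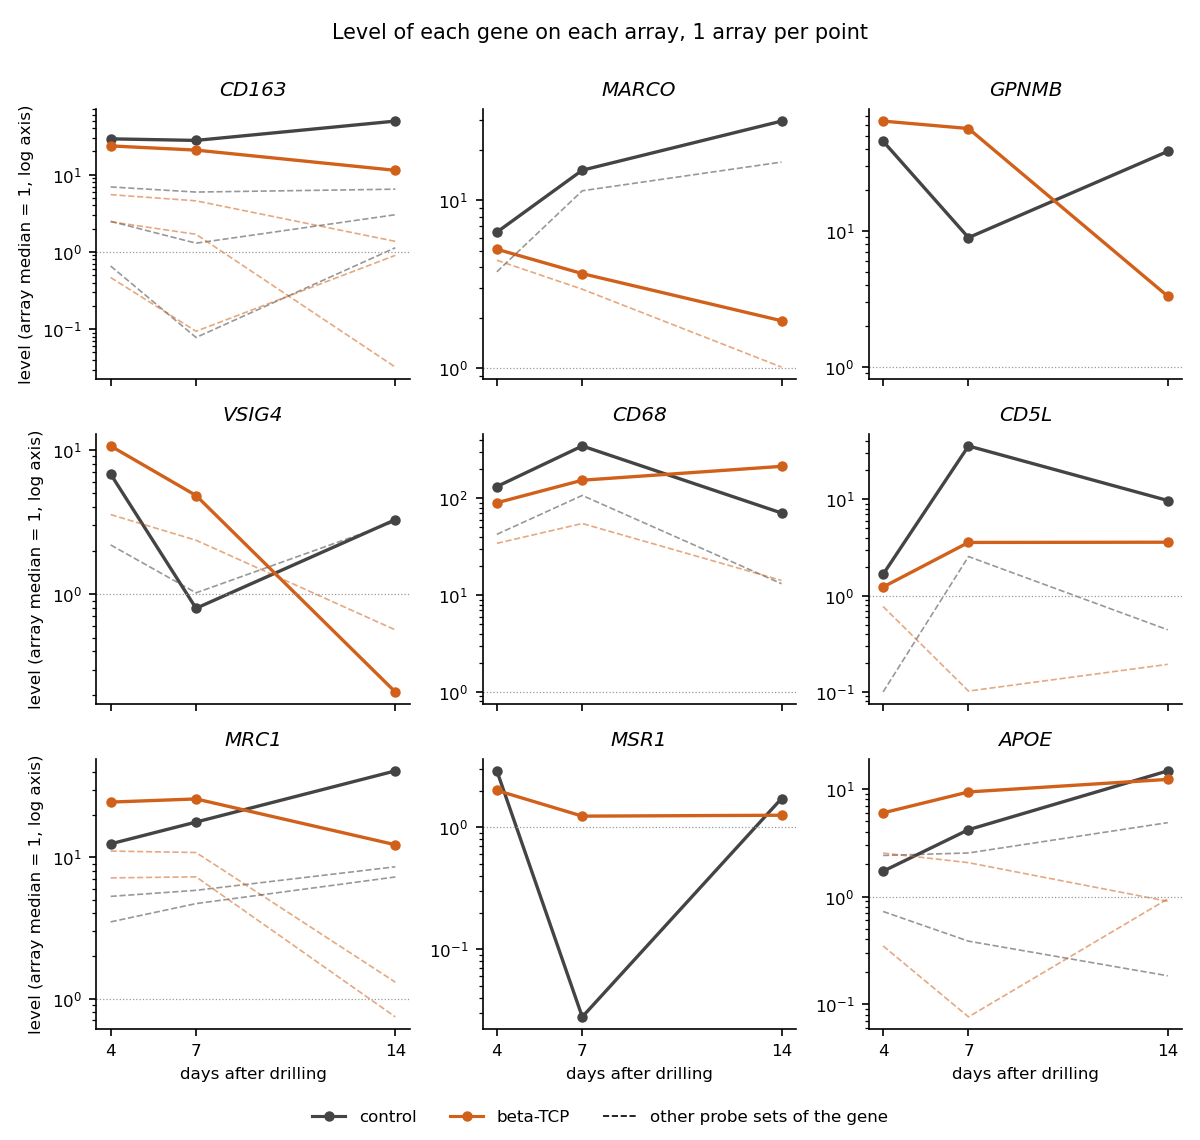
Level of each gene (log axis, array median = 1) against days after drilling, for control (dark) and beta-TCP (orange) sites, with 1 array per point; thick lines are the main probe set and dashed lines the gene's other probe sets. The lines of MARCO part from day 4 onward, those of GPNMB and VSIG4 cross between days 7 and 14, and the control level of CD5L stands out at day 7.

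Among the scavenger receptors, MARCO, a receptor of class A that binds bacteria and particles, showed a gap that was wider at each later day. On the control arrays its level was 6.47, 15.1 and 29.7 at days 4, 7 and 14, and on the beta-TCP arrays it was 5.12, 3.66 and 1.92. The control array was thus the higher one on every day, with differences of -0.29, -1.79 and -3.39. A ratio of levels, control over beta-TCP, was 1.26, 4.13 and 15.5. The other probe set of MARCO gave 0.18, -1.65 and -3.15, so the sign at day 4 depended on the probe set, while days 7 and 14 had the same sign on both. Both are Cfa probe sets; among all kept Cfa probe sets, the main one lay at percentile 19.5 at day 4, 0.365 at day 7 and 0.132 at day 14.

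CD163, the receptor that takes up haemoglobin bound to haptoglobin, was nearly flat over the first days. On its main probe set the level was 29.2, 27.8 and 49.5 on the control arrays and 23.6, 20.8 and 11.4 on the beta-TCP arrays. The control array was the higher one each day on this probe set, but only the day 14 difference (-2.03) reached 2-fold, against -0.29 at day 4 and -0.40 at day 7. The other 3 probe sets gave -0.29, -0.014 and -0.18 at day 4 and -0.32, 0.23 and 0.021 at day 7, so 2 of the 4 were lower and 2 higher with beta-TCP at day 7. At day 14, 3 of the 4 probe sets of CD163 were at least 2-fold lower, at -2.03, -1.66 and -1.97. The fourth, below the filter, lay at -0.16. One of these, at -1.97, had a level of 0.032 on the beta-TCP array, near the bottom of the scale.

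CD5L, a secreted protein of macrophages with scavenger receptor domains, stood out on 1 array. Its level on the control array at day 7 was 35.7, against 1.66 and 9.69 on the control arrays of days 4 and 14 and 1.23, 3.56 and 3.58 on the beta-TCP arrays of days 4, 7 and 14. The difference at day 7 was -3.01, at percentile 0.0146 of all kept Cfa probe sets. Differences at days 4 and 14 were -0.26 and -1.22, the latter under 2-fold with quantile normalization (-0.84) or a pseudocount of 4 (-0.85). The second probe set of CD5L, below the filter, was also highest on the control day 7 array, with a level of 2.54 there and of 0.100 to 0.771 on the other 5. On it the difference was 0.69 at day 4, -1.68 at day 7 and -0.27 at day 14.

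MSR1, the class A receptor for modified lipoproteins, was read near the array median by its single probe set. Its level was 2.91, 0.028 and 1.73 on the control arrays and 2.01, 1.24 and 1.26 on the beta-TCP arrays. Differences were -0.38, 1.12 and -0.27. The day 7 difference rests on the single low control reading of 0.028, and with a pseudocount of 4 in place of 1 it was 0.38.

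MRC1, the mannose receptor, which takes up glycoproteins and collagen fragments, was higher with beta-TCP at days 4 and 7 and lower at day 14. The level was 12.4, 17.7 and 40.8 on the control arrays and 24.6, 25.9 and 12.3 on the beta-TCP arrays. Differences of the main probe set were 0.93, 0.52 and -1.66. All 3 probe sets had these signs on each day, with ranges of 0.86 to 0.94 at day 4, 0.52 to 0.79 at day 7 and -2.24 to -1.66 at day 14. Neither early difference reached 2-fold on this scale.

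VSIG4, a complement receptor of resident macrophages that binds C3 fragments, gave the same order of signs as MRC1. Its level was 6.78, 0.797 and 3.28 on the control arrays and 10.6, 4.82 and 0.210 on the beta-TCP arrays. The control day 7 and the beta-TCP day 14 arrays were below the array median, so no fold is given against them. Differences were 0.58, 1.69 and -1.82. The second probe set agreed in sign, at 0.51, 0.73 and -1.42, and did not reach 2-fold at day 7. With a pseudocount of 4 the main probe set gave 0.88 and -0.79 at days 7 and 14, both under 2-fold.

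GPNMB, also called osteoactivin, is a lysosomal and surface glycoprotein of macrophages, osteoclasts and osteoblasts. It had the largest difference on the higher side among the 20 probe sets at day 7. On the control arrays its level was 46.0, 8.97 and 38.7, and on the beta-TCP arrays 64.6, 57.0 and 3.32. The low arrays were thus control at day 7 and beta-TCP at day 14, and the other 4 lay between 38.7 and 64.6. Differences were 0.48, 2.54 and -3.20, with level ratios (beta-TCP over control) of 1.41 at day 4 and 6.35 at day 7 and a ratio of control over beta-TCP of 11.6 at day 14. Among kept CfaAffx probe sets these lay at percentiles 76.6, 99.9 and 0.260. With 1 probe set there is no second reading of this gene.

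APOE, the apolipoprotein through which macrophages release cholesterol, was read differently by its 3 probe sets. On the main one, of type CfaAffx, the level was 1.72, 4.18 and 14.7 on the control arrays and 6.0, 9.39 and 12.3 on the beta-TCP arrays. That is 1.36 higher with beta-TCP at day 4, 1.0 higher at day 7 and -0.24 at day 14; with a pseudocount of 4 the first of these was 0.81 and the next 0.71. The Cfa probe set that passed the filter gave 0.053, -0.21 and -1.62. The third, below the filter, gave -0.36, -0.36 and 0.72, so no direction held over the 3 probe sets of APOE on any day.

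CD68 had the opposite sign to most of the others at day 14. Its main probe set, of type Cfa, had a level of 132, 347 and 70.5 on the control arrays and 89.9, 154 and 214 on the beta-TCP arrays. The control array was higher at days 4 and 7 and the beta-TCP array at day 14, with differences of -0.55, -1.17 and 1.59. With day 14 values not divided by the array median, the last was 0.65. Its other probe set, of type CfaAffx, had a level of 42.4, 107 and 13.1 on the control arrays and 34.3, 54.9 and 14.2 on the beta-TCP arrays. On it the differences were -0.30, -0.95 and 0.10. Both probe sets were highest on the control day 7 array and lowest on the control day 14 array. They parted on the beta-TCP day 14 array, where CD68 lay at percentile 99.2 of differences among Cfa probe sets and 72.5 among CfaAffx ones.

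**Figure D3:**
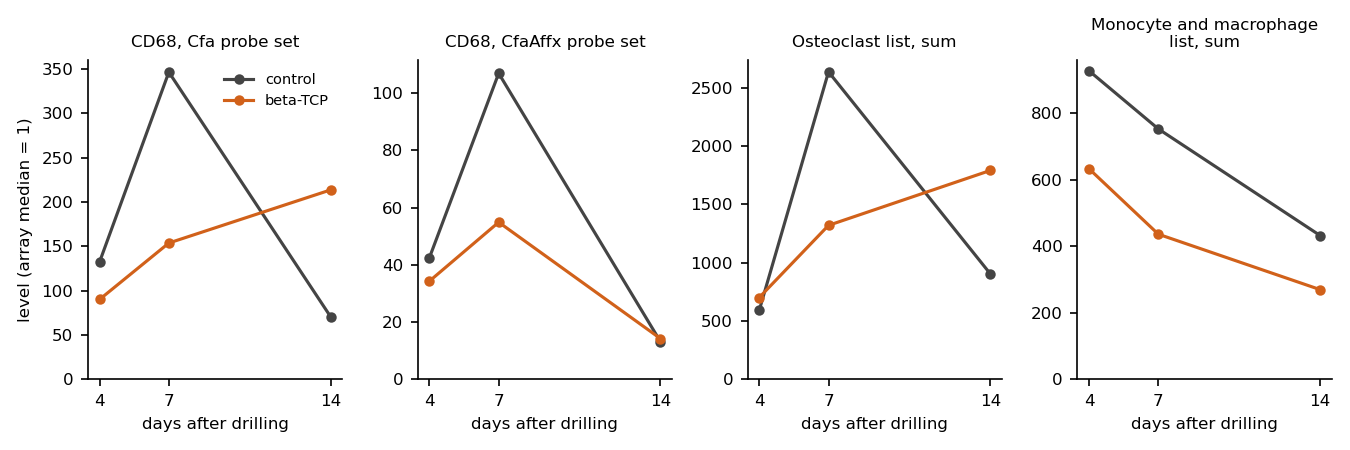
Level of the Cfa and the CfaAffx probe set of CD68, and summed levels of the osteoclast list (10 genes measured) and the monocyte and macrophage list (17 genes measured), against days after drilling, with 1 array per point and control dark, beta-TCP orange. The Cfa probe set of CD68 and the osteoclast sum are both highest on the control array at day 7 and higher with beta-TCP at day 14, while the monocyte and macrophage sum is lower with beta-TCP on each day.

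Genes of osteoclasts, given as the summed level of the list, had the same order as the main probe set of CD68 at days 7 and 14. The summed level of 10 measured osteoclast genes of 12 listed was 589, 2639 and 904 on the control arrays and 700, 1320 and 1791 on the beta-TCP arrays. Of the 10, 6, 1 and 6 were higher with beta-TCP at days 4, 7 and 14 and 4, 9 and 4 lower, with medians of 0.19, -0.65 and 0.74 against 0.17, -0.085 and -0.23 over all kept genes. At least 2-fold higher were 0, 0 and 4, and lower 0, 3 and 0. The 4 lower ones at day 14 were CALCR, NFATC1, TNFRSF11A and SIGLEC15. These 4 were all read on CfaAffx probe sets and the 6 higher ones all on Cfa probe sets, the types on which CD68 parted that day. The part of probe set type in this likeness was not tested. Tartrate-resistant acid phosphatase (ACP5) was at 429 on the control and 199 on the beta-TCP array at day 7, and at 42.9 and 190 at day 14. The calcitonin receptor gene CALCR and NFATC1 lay below the array median on all 6 arrays. Monocyte and macrophage markers, 17 measured of 19 listed, summed to 927, 753 and 432 on the control arrays and to 633, 436 and 269 on the beta-TCP arrays. Of these 17 genes, 11, 14 and 13 were lower with beta-TCP at days 4, 7 and 14, with medians of -0.35, -0.34 and -0.48. Those beyond 2-fold were 1 higher and 0 lower, 0 and 4, and 0 and 5. Over all kept probe sets, 4.31%, 3.17% and 3.89% were at least 2-fold higher on these days and 2.97%, 3% and 16.2% lower. The part of osteoclasts or of macrophage number in the differences of the 9 genes was not tested.

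The next question was whether beta-TCP had an average effect. With an additive model of treatment and day over the 6 arrays in limma, which leaves 2 residual degrees of freedom, 0 of 25591 kept probe sets passed an adjusted p of 0.05 (background 0%), and 1054 had an unadjusted p under 0.05. Of the 20 member probe sets 17 entered the fit and 3, 1 each of CD163, CD5L and APOE, were below the filter. None of the 17 passed in limma, and 4 had an unadjusted p under 0.05. These were both probe sets of MARCO, at -1.82 ± 0.52 and -1.54 ± 0.55 (SE), with limma adjusted p = 0.859 and 1.0. The others were the main ones of CD5L, -1.50 ± 0.48 (limma adjusted p = 0.961), and CD163, -0.91 ± 0.39 (limma adjusted p = 1.0). MARCO, CD5L and CD163 were lower on all 3 days on these probe sets, except on the second probe set of MARCO at day 4. On main probe sets, averages near 0 belonged to genes whose sign turned between days 7 and 14. GPNMB lay at -0.058 ± 0.86, VSIG4 at 0.15 ± 0.58, MRC1 at -0.070 ± 0.48 and CD68 at -0.044 ± 0.49. The second probe set of CD68 lay at -0.38 ± 0.32. APOE and MSR1 turned sign as well on their main probe sets, and lay at 0.71 ± 0.37 and 0.16 ± 0.37.

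A fit without 1 pair of arrays leaves fewer residual degrees of freedom than that on all 6. Its SE and p lean more on the variance shared over probe sets. Without the day 14 pair of arrays, 107 probe sets passed, none of them a member. GPNMB was then at 1.51 ± 0.40 (limma adjusted p = 0.114), APOE at 1.18 ± 0.31 (limma adjusted p = 0.111), CD5L at -1.63 ± 0.46 (limma adjusted p = 0.145) and VSIG4 at 1.14 ± 0.34 (limma adjusted p = 0.169). MARCO was at -1.04 ± 0.36 (limma adjusted p = 0.276) and -0.73 ± 0.38 (limma adjusted p = 0.557) on its 2 probe sets, and CD163 at -0.35 ± 0.31 (limma adjusted p = 0.801), all nearer 0 than with all 6 arrays. CD68 was at -0.86 ± 0.32 (limma adjusted p = 0.318) and MRC1 at 0.72 ± 0.31 (limma adjusted p = 0.431). Without the day 7 pair, CD5L was at -0.74 ± 0.50 and GPNMB at -1.36 ± 0.67, both with limma adjusted p = 1.0. Whether a treatment effect differed between days cannot be tested with 1 array per group, since that difference is the residual of the fit.

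The last question was how the genes moved between days within each treatment. From day 4 to day 7 on the control arrays, 6 of the 20 probe sets were at least 2-fold higher at day 7 (background 8.4%) and 3 lower (background 3.75%). The higher ones were both of CD5L, MARCO and CD68, and the lower ones were GPNMB (-2.24), MSR1 (-1.93) and the main one of VSIG4 (-2.11). The main probe set of CD5L differed by 3.78, that of CD68 by 1.38 and that of MARCO by 1.11. On the beta-TCP arrays the same step gave 1 probe set at least 2-fold higher, CD5L at 1.03 (background 2.98%), and 0 lower (background 1.71%). On those arrays GPNMB differed by -0.18, CD163 by -0.17 and MRC1 by 0.071.

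From day 7 to day 14 the control and the beta-TCP arrays ran differently. On the control arrays 6 probe sets were at least 2-fold higher at day 14 (background 2.79%) and 4 lower (background 4.23%). The higher ones were GPNMB (1.99), APOE (1.6), MSR1 (1.41), both of VSIG4 and the main one of MRC1 (1.16). The lower ones were both of CD68 (-2.28 and -2.94) and both of CD5L (-1.78 and -1.30). On the beta-TCP arrays 0 were at least 2-fold higher (background 4.4%) and 9 lower (background 12.1%), among them GPNMB (-3.75), the main one of VSIG4 (-2.27) and all 3 of MRC1. These were 7 of 11 CfaAffx and 2 of 9 Cfa probe sets. Among all kept probe sets, 26.5% of CfaAffx and 13.7% of Cfa ones were as much lower. The CfaAffx probe set of CD68 (-1.88) was among the lower ones, while its main one differed by 0.47. The part of probe set type in this step was not tested. Day 14 was deposited on another scale than days 4 and 7, so day and processing cannot be told apart in these steps.

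In the same additive fit, the F test over days called 290 of 25591 probe sets (background 1.13%) and none of the 17 members in limma. An unadjusted p under 0.05 was reached by 4487 of the 25591 and by 4 of the 17. For day 7 minus day 4 limma called 0 of 25591 (background 0%), with 2810 at an unadjusted p under 0.05. For day 14 minus day 4 it called 831 (background 3.25%), and for day 14 minus day 7 it called 3 (background 0.0117%), with no member in any of these contrasts. The lowest limma adjusted p of a member was 0.0544, for the CfaAffx probe set of CD68 in the F test, which differed by -2.41 between days 14 and 7. The main probe set of CD68, of type Cfa, differed by -0.90 there (limma F test adjusted p = 0.520). The main probe set of APOE, of type CfaAffx, followed for day 14 minus day 4, at 1.73 ± 0.45 (limma adjusted p = 0.0785). The Cfa probe set of APOE that passed the filter lay at -0.056 ± 0.47 (limma adjusted p = 0.959).

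Other genes of the same functions were read from lists and are given by their main probe sets. For the counts of this and the following lists, the shares over all kept probe sets were 4.31%, 3.17% and 3.89% at least 2-fold higher at days 4, 7 and 14. At least 2-fold lower were 2.97%, 3% and 16.2%. Of other scavenger and dead-cell uptake receptors, 18 of 20 were measured, and 1, 2 and 0 were at least 2-fold higher at days 4, 7 and 14, with 0, 0 and 4 lower. Their medians were 0.030, -0.022 and -0.54, against 0.17, -0.085 and -0.23 over all kept genes. At day 4 GAS6 (1.23), the bridging ligand of dead-cell receptors, and COLEC12 (0.71) were highest and OLR1 (-0.96) and TIMD4 (-0.65) lowest. The fatty acid and lipoprotein receptor CD36 was highest at day 7 (1.85), followed by COLEC12 (1.32), with CXCL16 (-0.47) and AXL (-0.37) lowest. At day 14 CD36 (-1.96) and CXCL16 (-2.07) were lowest and OLR1 (0.61) and AXL (0.41) highest. OLR1, with levels of 0.058 and 0.613 on the control and beta-TCP arrays that day, and AXL, with 0.325 and 0.758, lay below the array median on both and below the filter, so their order is not read.

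Genes of lipid and iron handling, all 18 measured, had medians of 0.093, -0.14 and -0.44. At least 2-fold higher were 3, 4 and 0, and lower 1, 3 and 5. Lipoprotein lipase (LPL, 2.39) and SOAT1 (1.18) were highest at day 4, and the lipid carrier FABP4 (3.38) and the lipid receptor TREM2 (1.55) at day 7. The value of SOAT1 rests on a control level of 0.0754, below the array median, against 1.43 with beta-TCP. PLIN2, which coats lipid droplets, was among the lowest on every day, at -1.86, -1.03 and -1.66. FABP4 (-1.0) at day 4, the sterol receptor NR1H3 (-1.66) at day 7 and the ferritin gene FTL (-1.57) at day 14 were the others. The ferritin gene FTH1 (0.85) and NPC2 (0.59) were highest at day 14.

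Inflammatory products of macrophages, all 16 measured, had medians of -0.84, -0.37 and -1.84, with 1, 0 and 0 at least 2-fold higher and 7, 3 and 9 lower. Lowest were IL1B (-2.89) and PTGS2 (-2.59) at day 4, CCL3 (-1.76) and PTGS2 (-1.27) at day 7, and CXCL8 (-4.56) and PTGS2 (-3.18) at day 14. Highest were IL12B (1.02) and IL6 (0.54), IL23A (0.68) and NOS2 (0.24), and CCL5 (0.085) and IL23A (-0.067). IL23A and NOS2 at day 7 and IL23A at day 14 lay below the array median on both arrays, and IL12B was below the filter, so these values are not read as an order. Products of resolution and repair, all 13 measured, had medians of -0.052, -0.15 and 0.23. Highest were TGFB1 (0.95) and IGF1 (0.59) at day 4, IGF1 (1.63) and PDGFB (0.077) at day 7 and CCL24 (1.01) and LGALS3 (0.90) at day 14. Lowest were SOCS3 (-1.73) and IL1RN (-1.66), IL10 (-0.70) and ALOX15 (-0.35), and IL10 (-1.23) and IL1RN (-0.76). ALOX15 lay below the array median on both arrays at day 7. CCL24 at day 14 rests on a control level of 0.117, below the array median, against 1.24 with beta-TCP. At least 2-fold higher were 0, 1 and 1, and lower 2, 0 and 1.

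**Figure D4:**
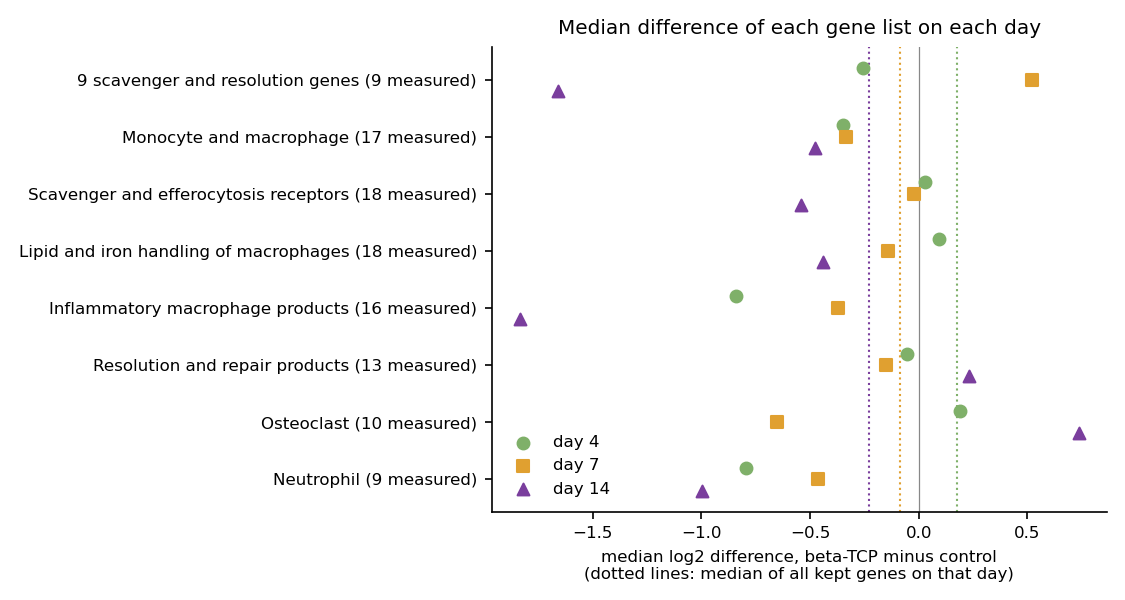
Median log2 difference, beta-TCP minus control, of each gene list by main probe sets at days 4 (circle), 7 (square) and 14 (triangle), with dotted lines for the median of all kept genes on the same day. The 9 genes lie at -0.26, 0.52 and -1.66, the inflammatory products below the median of all kept genes on each day, and the osteoclast list at 0.19, -0.65 and 0.74.

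In limma, no gene of these 4 lists passed for the average effect of treatment. For day 14 minus day 4, 7 of the 15 kept inflammatory genes passed and fell: IL1B (-4.50), TREM1 (-4.23), CCL3 (-4.08), CCL4 (-3.48), IL1A (-3.20), IL18 (-2.98) and IL23A (-2.26). Over all 25591 kept probe sets the contrast called 831 (background 3.25%), 634 of them lower. One gene of each other list fell as well, CLEC7A (-2.56), ABCA1 (-2.32) and IL1RN (-2.91). CXCL10 passed only the F test over days. Of 7 kept neutrophil genes 5 fell in the same contrast: S100A8 (-2.71), S100A9 (-2.92), the receptor gene CSF3R (-3.04), lactoferrin (LTF, -2.87) and IL1R2 (-3.80). The part of neutrophils in the fall of the inflammatory genes was not tested. Of 16 kept monocyte and macrophage markers, FCGR1A (-3.00), FCER1G (-2.50) and ADGRE1 (-1.64) fell and the complement gene C1QC (1.78) rose. None of the 9 scavenger genes passed in either direction. Day 14 was deposited on another scale than day 4, so day and processing cannot be told apart in these changes. IL1B, TREM1, IL23A, CLEC7A, ABCA1, S100A8, S100A9, CSF3R, LTF, FCER1G and ADGRE1 were read on CfaAffx probe sets, the others on Cfa ones. The centred median of CfaAffx minus Cfa was 0.37 and 0.40 at day 4 (control, beta-TCP) and -0.19 and -0.81 at day 14.

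Over the 6 arrays, GPNMB and VSIG4 had the most alike profiles of the 9 genes (Pearson r = 0.96 on the log2 scale), followed by CD163 and MARCO (r = 0.92). CD5L and MSR1 ran most nearly opposite (r = -0.87). Main probe sets of GPNMB, VSIG4 and MSR1 are of type CfaAffx and those of CD163, MARCO and CD5L of type Cfa. Thus both alike pairs share a type and the opposite pair does not. The part of probe set type in these values was not tested. Among 17775 kept probe sets with a named gene, the 2 most alike were RNPS1 and TCIRG1 for CD68 (r = 0.99 and 0.98), KLC2 and HSP90AA1 for CD163, SLC25A30 and C32H4orf3 for MARCO, and USO1 and DZIP3 for GPNMB. They were RFC2 and SYNE1 for VSIG4, PITRM1 and NSD2 for CD5L, MORN1 and SEC22B for MRC1, SUGP1 and CCDC171 for MSR1, and PTRHD1 and IMMP1L for APOE, with r between 0.98 and 1.0 in all. The arrays share treatment, day and scale, and with 6 points and so many candidates such values are a description of these arrays only.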

How the data were processed

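RNA of 6 mandible specimens (100 ng of total RNA each, per the labels' protocols) was read on 6 Affymetrix canine arrays, 1 per group. The deposited table holds 42860 probe sets without detection calls. For days 4 and 7 the authors deposited a ratio of signal to the array's own median (lowest value 0.01), and for day 14 an undivided intensity with medians of 12.0 and 6.2. These units were read from the values; for software and scaling, the sources used here give no name. The number of arrays limits the precision.

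Each array was divided by its median and log2(value + 1) was taken. Probe sets were named from the platform annotation: 29254 have 1 gene, 439 several and 13167 none. Of the 29254, 27680 have a gene ID in the RefSeq table of UU_Cfam_GSD_1.0, which served for names only. Every test and adjustment ran over 25591 probe sets with a mean log2 at or above the 40th percentile, without 180 probe sets in 90 name pairs ending in _a_at and _at, of which none is a member. limma 3.58.1 in R 4.3.3 fitted day and treatment, two-sided, with Benjamini-Hochberg adjustment. Checked on simulated data over 25591 probe sets, it called 2%, 60%, 96% and 100% of 50 probe sets changed by 1, 2, 3 and 4 log2 units, with 7 false calls. These shares hold for the simulated data and are not shares for the members, whose SE in the fit was as high as 0.86 (GPNMB).

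The rule for named genes takes all members, the 2 highest and 2 lowest genes of each of 4 lists per day, list genes past a test and the 2 genes most alike each member. Members and lists were chosen with earlier results of these data known. No sequence is shown.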

Additional observations from a re-analysis of the deposited data

Results flagged for a closer look

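For 3 genes the difference between beta-TCP and control had opposite signs at days 7 and 14, each at least 2-fold on the main probe set. Differences of GPNMB were 2.54 (day 7) and -3.20 (day 14), and those of VSIG4 1.69 and -1.82. CD68 went the other way, with -1.17 and 1.59. The difference between days was not tested, since each group holds 1 array. The second probe set of VSIG4 had the same signs (0.73 and -1.42), that of CD68 gave -0.95 and 0.10, and GPNMB has no second one. With a pseudocount of 4, VSIG4 gave 0.88 and -0.79 on its main probe set. GPNMB and VSIG4 were read on CfaAffx and the main probe set of CD68 is Cfa. The centred median of CfaAffx minus Cfa was 0.023 and 0.20 at day 7 (control, beta-TCP) and -0.19 and -0.81 at day 14. The part of probe set type in these turns was not tested.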

How the results depend on the processing

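Signs of GPNMB, VSIG4, MARCO, MRC1, CD163 and CD68 for beta-TCP minus control were the same under each alternative run on all 3 days. The other probe sets of a gene were not each run as an alternative. Singly, the second one of MARCO gave 0.18 at day 4, and 2 of the 4 of CD163 gave 0.23 and 0.021 at day 7. MARCO ranged from -1.98 to -1.32 at day 7 and -4.79 to -2.51 at day 14, and GPNMB from 2.23 to 2.69 and -4.43 to -2.54. Among differences of at least 2-fold, APOE at day 7 turned to -0.21 on its Cfa probe sets, and on CfaAffx probe sets CD68 (-1.22) and CD5L (-0.57) turned for day 14 minus day 4 with beta-TCP, as did CD5L (-0.68) for day 7 minus day 4. Smaller differences turned too: APOE at day 14 (0.15 with quantile normalization, 0.12 with 75th percentile scaling), CD5L at day 4 (0.21 with the mean, 0.69 on CfaAffx) and, with beta-TCP, CD68 for day 14 minus day 7 (-0.70 with the mean, -1.88 on CfaAffx), APOE on Cfa in all 3 steps (-0.21, -0.69 and -0.89) and MRC1 for day 7 minus day 4 (-0.032 to -0.021). On the control arrays CD163 turned for day 14 minus day 4 (-0.084 on CfaAffx).

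The share of member probe sets at least 2-fold higher with beta-TCP at day 4 was 5%. It was 15% with a pseudocount of 0.25, 0% with 4, 11.1% with 1 probe set per gene, 0% with probe sets averaged per gene (the mean), 0% on Cfa and 9.09% on CfaAffx probe sets. At day 7 the share was 20%, and 5% with a pseudocount of 4, 44.4% with 1 probe set per gene, 33.3% with the mean, 0% on Cfa and 36.4% on CfaAffx. The share lower at day 7 was 25%, with 44.4% on Cfa and 9.09% on CfaAffx. At day 14 the share lower was 65%, and 35% with a pseudocount of 4. The share higher was 5%, with 10% at a pseudocount of 0.25, 11.1% with 1 probe set per gene or Cfa alone, and 0% with the mean or CfaAffx alone.

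Between days, a pseudocount of 4 gave 25% (main 45%) for day 7 minus day 4 and 30% (main 50%) for day 14 minus day 7 on the control arrays. With beta-TCP it gave 0% (main 5%), 25% (main 45%) and 30% (main 60%, day 14 minus day 4). For day 7 minus day 4 with beta-TCP the share was 20% at a pseudocount of 0.25, 11.1% with 1 probe set per gene or Cfa alone, and 0% with the mean or CfaAffx alone. For day 14 minus day 7 it was 77.8% with 1 probe set per gene and 33.3% on Cfa (control), and 22.2% on Cfa (beta-TCP). For day 14 minus day 4 on the control arrays it was 18.2% on CfaAffx (main 30%).

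The average effect called 0 probe sets, 3 without the day 4 pair and 107 without the day 14 pair, none a member. The F test called 290, but 707 with 75th percentile scaling, 640 with quantile normalization, 58 on CfaAffx, 36 with the mean, 2 with a pseudocount of 0.25, and 0 with a pseudocount of 4 or no filter. The CfaAffx probe set of CD68 passed it (1 member) with quantile normalization or with the name pairs kept in. The main probe set of APOE (1 member), of type CfaAffx, passed for day 14 minus day 4 with 75th percentile scaling (limma adjusted p = 0.0233) or quantile normalization. Without the day 14 pair 2 members, the main probe sets of CD5L (2.41) and VSIG4 (-1.56), passed for day 7 minus day 4. That fit leaves fewer residual degrees of freedom than the main one. For these results the cause was not tested. Values as deposited were not used between day 14 and the other days, whose scales differ. No paired analysis was possible because the labels give no replicate numbers to pair; the fit already has the day as a term. Without detection calls, levels below 1 cannot be told from background.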

Other observations

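Markers of other cells differed between the sites as well. Endothelial genes, 7 measured, had a median of 0.83 at day 4, -0.30 at day 7 and 0.60 at day 14, and osteoblast genes, 7 measured, of -0.035, 1.88 and 1.5. Medians over all kept genes were 0.17, -0.085 and -0.23. Of the osteoblast genes, 3, 6 and 4 were higher with beta-TCP and 4, 1 and 3 lower. At day 14 they summed to 221 (control) and 238 (beta-TCP). BGLAP, PHEX and MEPE lay below the array median on the control arrays of days 7 and 14. Fibroblast genes, 7 measured, had medians of 0.58, 0.33 and -0.13. Epithelial genes, 6 measured of 9 listed, summed to a level of 148 on the control day 4 array and to 8.01 to 24.9 on the other 5. Neutrophil genes, 9 measured, summed to 1962, 1485 and 319 on the control arrays and to 990, 980 and 117 on the beta-TCP arrays, with medians of -0.80, -0.46 and -1.0. T and B cell genes (7 measured) summed to levels of 9.95 to 24.7, adipocyte genes (4 measured) of 2.43 to 3.60 and red cell genes (2 measured of 6) of 1.51 to 4.43. The 10 common reference genes had medians of 0.16, -0.13 and -0.64.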
